A study of Arabidopsis thaliana with 16 samples.

Results

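The regions described here were the Arabidopsis promoters at which an antiserum against the whole WRKY family gave a peak in every one of 8 immunoprecipitated libraries. Peaks from the 8 deposited lists that overlapped by at least 1 bp were merged, which turned 14333 peaks into 3886 regions. A region was kept where all 8 lists had a peak in it and where its strongest peak, by rank of the ChIP score within its own list, was annotated as promoter. This left 321 regions, which is 8.26% of all merged regions and 64.7% of the 496 regions called in all 8 lists. The other 175 regions called in all 8 lists were annotated as intergenic (83), transcription end (70), intron (16), exon (3) or 3′ UTR (3). The members were thus chosen by the peak calls, the annotation and the ChIP score rank of these same 8 lists, so their presence in all lists and their high score ranks are given as descriptions without a test.

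WRKY proteins form a large family of plant transcription factors. Their binding motif, the W-box, is short and common in promoters of defence genes, and many WRKY genes carry W-boxes in their own promoters. Perception of flg22, a peptide of bacterial flagellin, by the receptor kinase FLS2 starts MAP kinase signalling and a rapid change in transcription in which WRKY factors act both as activators and as repressors. WRKY18, WRKY40 and WRKY33 are among the members best studied in this response, WRKY33 as a regulator of camalexin synthesis and WRKY18 and WRKY40 largely as repressors.

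Chromatin came from whole Arabidopsis thaliana seedlings of 12 days, of either the Col-0 wild type (WT) or the wrky18 wrky40 wrky33 triple mutant in Col-0. Each genotype was collected untreated (0 h) and after 2 h in medium with 1 µM flg22 (treated), with 2 biological replicates in each of the 4 groups, and 8 matching input libraries served for the authors' peak calling. No group held untreated seedlings for 2 h, so flg22, the change of medium and time cannot be told apart. The serum recognises WRKY proteins in general, so other family members can give a peak in the mutant, and a peak list does not check the genotype. Each library pooled tissues of many seedlings, and its DNA went through linear amplification before sequencing with single reads of 100 bases, per the labels. The lists held 1372 to 2213 peaks and gave no read counts, so the depth behind a single peak is unknown.

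The 321 regions had 321 different nearest genes, of which 311 were protein-coding, 6 were pseudogenes and 4 were of other types. The 311 genes are 1.13% of the 27444 protein-coding genes in the reference gene table. In 294 regions the annotated promoter belonged to the nearest gene. In the other 27 it belonged to a neighbour, as at LDOX, an enzyme of anthocyanin synthesis, where the annotated promoter was that of AT4G22890. In 302 of the 321 regions the strongest peak was of promoter class in every list, and in 19 in fewer lists. In 301 regions each list held a single peak, and 38 of the genes had at least 1 further region elsewhere, with up to 4 regions at PEN2 and AT5G56960. A peak near a gene does not show that the gene was expressed.

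The score percentile used below is the share of a list's own peaks that scored at or below the peak, so 100 is the strongest peak of that library. It only orders peaks within a list. Over the 321 promoters the median of the 8 percentiles ran from 27.1 to 99.4, with a middle value of 77.1. In 7 promoters all 8 percentiles were above 90, in 123 all were above 50, and in 198 they fell on both sides of 50. No promoter was below 50 in all libraries. By library, replicate 1 before replicate 2, the middle value was 77.3 and 74.2 for untreated WT, 72.2 and 79.6 for WT after flg22, 75.1 and 78.4 for the untreated mutant and 78.7 and 84.3 for the mutant after flg22. The spread of 1 promoter over the 8 libraries had a median SD of 17.2 percentile points, against 18.03 for the 175 other regions called in all lists.

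The strongest promoter by median percentile was that of CAD1 (AT5G44070, chr5:17733816-17734950 on TAIR10), which encodes phytochelatin synthase, an enzyme that makes metal-binding peptides from glutathione. Its percentiles were 99.7 and 99.7 in untreated WT, 99.1 and 99.4 in treated WT, 99.7 and 99.4 in the untreated mutant, and 98.6 and 99.4 in the treated mutant. It had the smallest spread of all 321 promoters (SD 0.354, n = 8). Next came PROPEP3 (AT5G64905, chr5:25938768-25940113), the precursor of an elicitor peptide that amplifies immune signalling. Here the values were 99.9 and 95.6 in untreated WT, 99.8 and 99.1 in treated WT, 99.6 and 98.6 in the untreated mutant, and 99.95 and 98.8 in the treated mutant. Only replicate 2 of untreated WT fell below 98. AT2G43620 (chr2:18094864-18095798), a chitinase-like gene, lay between 97.3 and 99.9 in all libraries.

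The other promoters above 90 in all 8 libraries were ACLA-1, AT1G59910, AT1G21326 and AAO3. ACLA-1, a subunit of the ATP-citrate lyase that supplies cytosolic acetyl-CoA, ranged from 91.6 to 99.6. AT1G59910, annotated as a formin-like protein, ranged from 93.3 to 99.3. AT1G21326, annotated as a VQ-motif protein, a class of small proteins that can bind WRKY factors, ranged from 92.3 to 98.1, and AAO3, the abscisic aldehyde oxidase of abscisic acid synthesis, from 90.4 to 98.5. The other leading promoters each had at least 1 lower library. CRK14 (AT4G23220, chr4:12156898-12157612), a cysteine-rich receptor-like kinase, gave 98.6 and 98.4 in untreated WT, 98.4 and 99.2 in treated WT, 95.2 and 99.4 in the untreated mutant, and 40.1 and 98.6 in the treated mutant. That single low value was in replicate 1 of the treated mutant. BZIP60, a transcription factor of the endoplasmic reticulum stress response, ranged from 86.7 to 99.05, AT5G25920 from 86.2 to 99.9, AT1G31220 from 79.6 to 99.2, AT1G04501 from 81.5 to 99.7 and AT1G78190 from 69.2 to 99.9.

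**Figure D1:**
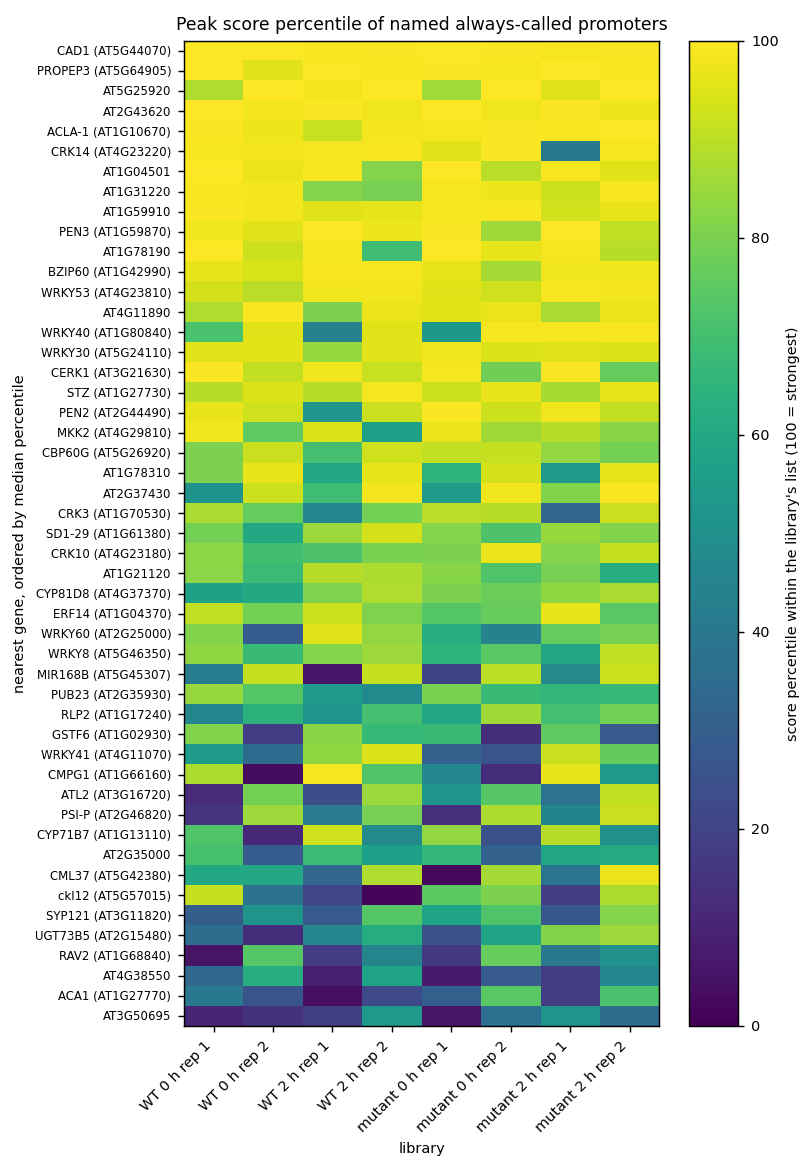
Score percentile of the peak in each library (columns; colour from 0 to 100, 100 being the strongest peak of that library's list) for the promoters named by rule or by gene list (rows, ordered by median percentile). CAD1 stayed between 98.6 and 99.7 in all 8 libraries, whereas MIR168B and PSI-P were low in the replicate 1 columns and high in the replicate 2 columns.

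Among the genes of pattern perception and early signalling, 13 of 18 (72.2%) had a peak in at least 1 list. Whether the shares of this and the later lists were particular to the set was not tested. A promoter in the set was held by 3 of the 18 (16.7%, against 1.13% of all protein-coding genes). Besides PROPEP3 these were CERK1 and SD1-29. CERK1 (AT3G21630, chr3:7618328-7619063) is the receptor kinase for fungal chitin, and its percentiles were 99.4 and 90.7 in untreated WT, 97.7 and 91.6 in treated WT, 98.8 and 78.4 in the untreated mutant, and 99.5 and 76.5 in the treated mutant. All replicate 1 values were above all replicate 2 values. SD1-29 (AT1G61380), also known as LORE, a receptor kinase for bacterial fatty acid derivatives, lay between 60.2 and 93.5. Of the 10 MAP kinase cascade genes listed, 5 had a peak in at least 1 list. The set held MKK2 (10%), a MAP kinase kinase, which ranged from 56.3 to 97.7. MPK5 (AT4G11330), a MAP kinase gene outside this list, was also a member.

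The genes of indole glucosinolate and camalexin metabolism, defence compounds made from tryptophan, contributed 4 of 20 (20%, against 1.13% of all protein-coding genes). A peak in at least 1 list was found for 16 of the 20 (80%). PEN3 (AT1G59870, chr1:22033380-22034692) is an ABC transporter of the plasma membrane required for penetration resistance. Its values were 97.7 and 95.2 in untreated WT, 99.9 and 97.3 in treated WT, 99.5 and 85.6 in the untreated mutant, and 99.8 and 90.4 in the treated mutant. The 2 lowest were the mutant replicate 2 libraries. PEN2, the myrosinase that acts in the same resistance pathway, ranged from 52.1 to 99.4 and had its peak maximum at position -1003 relative to the transcription start site (TSS). AT1G21120, known as IGMT2, a methyltransferase of indole glucosinolates, ranged from 63.0 to 89.3. GSTF6, a glutathione transferase linked to camalexin synthesis, gave 81.0, 82.4, 67.3 and 75.8 in the replicate 1 libraries and 18.3, 67.1, 13.0 and 28.1 in the replicate 2 libraries, in the order WT 0 h, WT 2 h, mutant 0 h and mutant 2 h.

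None of 20 ethylene genes and none of 19 jasmonate genes had a promoter in the set, although 13 and 8 of them had a peak in at least 1 list. Beside the 1.13% of all protein-coding genes, lists of this size cannot show a lack of members. In addition, 3 of the ethylene genes had a region of another class called in all 8 lists. Of 18 salicylic acid genes 11 had a peak in at least 1 list, and the set held 1 (5.56%, against 1.13% of all protein-coding genes). This was CBP60G, a transcription factor that drives salicylic acid synthesis, at 70.5 to 92.6. None of 9 housekeeping genes had a peak in any list.

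The WRKY family had 6 of 71 genes in the set (8.45%, against 1.13% of all protein-coding genes), and 33 of the 71 had a peak in at least 1 list. A region of any class called in all 8 lists was found for 9 of the 71. WRKY53 (AT4G23810, chr4:12393805-12394698), a regulator of leaf senescence and defence, had percentiles of 93.7 and 89.6 in untreated WT, 97.9 and 98.2 in treated WT, 95.5 and 92.8 in the untreated mutant, and 98.5 and 98.1 in the treated mutant. All 4 libraries at 2 h were above all 4 at 0 h, also when ranked only among the regions called in all lists. WRKY30 ranged from 84.2 to 97.9 with no such order. WRKY40 (AT1G80840, chr1:30381228-30384173), 1 of the 3 genes mutated in the triple mutant, gave 71.2 and 95.7 in untreated WT, 44.5 and 95.5 in treated WT, 53.1 and 98.5 in the untreated mutant, and 98.8 and 99.1 in the treated mutant. The low values were all in replicate 1. Its region was a chain of overlapping peaks 2946 bp wide, the widest of the 321, with the maximum of its strongest peak at position -910. WRKY60, the closest relative of WRKY18 and WRKY40, ranged from 29.2 to 95.3, WRKY8 from 59.1 to 90.2 and WRKY41 from 26.0 to 94.6.

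The other transcription factor families can be read against the 1.13% of all protein-coding genes. Of 38 genes named as ethylene response factors or relatives, 4 had a region of any class called in all 8 lists. The set held 2 of the 38 (5.26%, ERF14 at 73.6 to 96.2 and RAV2 at 5.28 to 76.7). Of 9 ZAT and AZF zinc finger genes 6 had a peak in at least 1 list, and the set held 2 (22.2%). These were STZ (ZAT10), a repressor in abiotic stress responses, at 86.8 to 98.6, and AT2G37430 (ZAT11), at 51.2 to 98.8. The STZ maximum lay at position -1082, the farthest upstream of all, and was of promoter class in 5 of the 8 lists. None of 125 MYB, 99 NAC and 20 heat shock factor genes was in the set, but 2 MYB genes had a region of another class called in all 8 lists. Beside the 1.13%, lists of these sizes cannot show a lack of members either. Of the 2 VQ genes listed by name 1 was in the set, AT1G78310 (VQ9), at 54.2 to 96.8. AT1G21326, annotated as a VQ-motif protein, was a member outside this list.

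Of the receptor-like kinases, 19 of 44 with a cysteine-rich extracellular part had a peak in at least 1 list. The set held 4 of the 44 (9.09%, against 1.13% of all protein-coding genes). These were CRK14, AT4G11890 (CRK45, 80.4 to 98.9), CRK3 (33.1 to 92.2) and CRK10 (69.7 to 97.0). The set also held 1 of 54 receptor-like proteins (1.85%, RLP2 at 45.8 to 85.6), and 2 of the 54 had a region of any class called in all 8 lists. It held none of 14 wall-associated kinases, a list too short to show a lack of members. The word kinase stood in the gene description of 42 of the 321 members (13.1%) and of 10.4% of the 2105 promoter regions outside the set, a difference given without a test. Among ubiquitin ligases, 1 of 23 U-box genes listed by the name PUB was present (4.35%). This was PUB23, a negative regulator of pattern-triggered immunity, at 47.7 to 84.7. CMPG1, a U-box ubiquitin ligase gene outside this list, was also a member and is described below. Of 14 ATL RING ligases 4 had a peak in at least 1 list. The set held 2 of them (14.3%), ATL2 at 12.0 to 90.9 and AT2G35000 (ATL9) at 29.2 to 70.7.

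Of the remaining lists, the set held none of 34 calcium-dependent kinases, 1 of 14 calmodulin-like genes (CML37, 2.14 to 97.2), 1 of 48 glutathione transferases (GSTF6), 1 of 64 UDP-glycosyltransferases (UGT73B5, 13.0 to 85.3), and 2 of 240 cytochromes P450 (CYP81D8 at 57.1 to 87.9 and CYP71B7 at 11.4 to 92.7). It held 1 of 127 ABC transporters (PEN3), 1 of 37 syntaxin and VAMP genes, and 1 of 53 photosystem and light-harvesting genes (PSI-P, 13.9 to 91.9). Of the 127 ABC transporters, 2 had a region of any class called in all 8 lists. The syntaxin was SYP121 (PEN1), a vesicle fusion protein of penetration resistance, at 27.2 to 81.8. The share of these lists ran from 0 to 7.14%, the calmodulin-like genes being highest, and over all protein-coding genes it was 1.13%. Beside that share a list of 34 genes cannot show a lack of members.

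Peak maxima lay mostly just upstream of the TSS. The maximum of the strongest peak was a median of 234 bp upstream (position -234, middle range -436 to -125.5, extremes -1082 and 665) in the 320 members with a resolved start site. In 115 members (35.8%) it lay 1 to 200 bp upstream and in 97 (30.2%) 201 to 400 bp upstream. It lay at or downstream of the TSS in 21 members. The promoter class itself bounds this distance, since 99.9% of peaks annotated to their own nearest gene had midpoints from -1000 to 100. Promoter regions called in 7 lists had a median position of -225.5 those called in 2 to 6 lists one of -215, and those called in 1 list one of -235, the last over only 62 of 578 regions with a resolved start site.

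The position moved with the replicate number. Median positions were -252, -265.5, -260 and -277 in the replicate 1 libraries and -204, -225.5, -212 and -205.5 in the replicate 2 libraries, in the order WT 0 h, WT 2 h, mutant 0 h and mutant 2 h. Every replicate 1 library was farther upstream than every replicate 2 library. Within a promoter the replicate 1 maximum lay upstream by a median of 36 bp in untreated WT, 32.5 bp in treated WT, 24.5 bp in the untreated mutant and 29 bp in the treated mutant, and it was the upstream of the pair in 56.2% to 60.3% of members. The direction was the same on both strands. Peaks of the members were also wider in replicate 1, with medians of 587 to 615 bp against 413 to 454 bp. The whole lists showed the same split, with medians of 525 to 564 bp against 354 to 385 bp. The part of peak width in the shift was not tested.

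**Figure D2:**
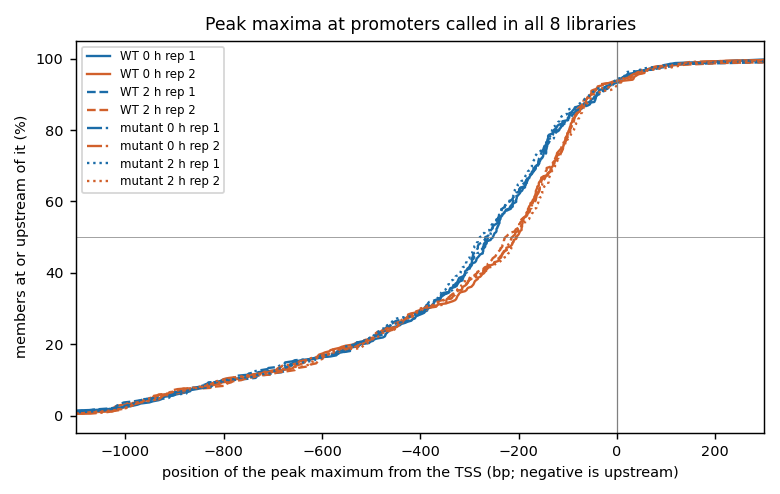
Cumulative share of members (vertical axis, percent) by the position of the peak maximum relative to the TSS (horizontal axis, bp, negative upstream) in each of the 8 libraries. The 4 replicate 1 curves (blue) reach the middle at -252 to -277 and the 4 replicate 2 curves (orange) at -204 to -225.5.

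Agreement between libraries followed the same split. Over the 321 promoters, Spearman's rho of the percentiles was 0.54 to 0.86 between libraries of the same replicate number and 0.17 to 0.44 between the 2 replicates of the same group. Maxima of the same promoter lay a median of 9 to 28 bp apart between libraries of 1 replicate number and 64 to 76 bp apart between replicates of a group. These are descriptions over promoters that share libraries, not tests. Over all 8 libraries the maxima of a promoter spanned a median of 117 bp, from 24 bp at AT5G56960 to 1204 bp, and they stayed within 100 bp in 117 members (36.4%), against 37.1% of the other regions called in all lists. CERK1 spanned 38 bp and CMPG1 679 bp.

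**Figure D3:**
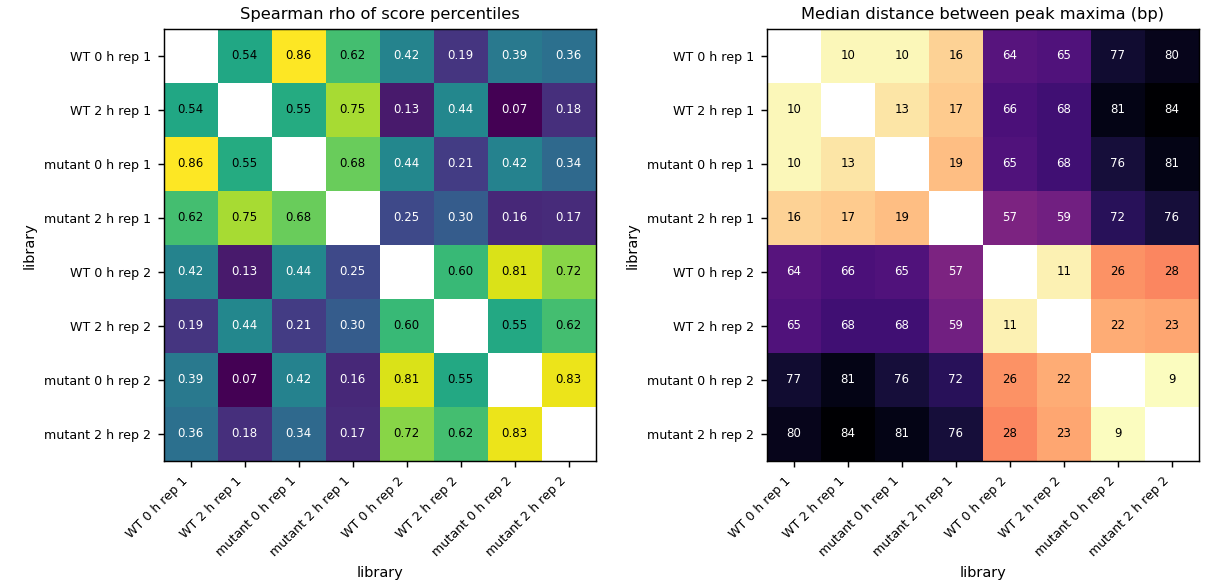
Spearman's rho of the score percentiles (left) and median distance in bp between peak maxima (right) for each pair of libraries over the 321 promoters, with the replicate 1 libraries first. Pairs of the same replicate number gave 0.54 to 0.86 and 9 to 28 bp, and replicates of the same group gave 0.17 to 0.44 and 64 to 76 bp.

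Individual promoters showed this split. For these comparisons each region was ranked by ChIP score among the same 496 regions in every library (rank percentile, 100 the strongest), which removes the difference in list length. A change in this rank is a shift relative to the other regions, not more or less binding. The score was that of the region's strongest peak in each library, so libraries can compare different positions within a region. The 4 replicate 1 and the 4 replicate 2 libraries did not overlap in 104 of 321 promoters (32.4%), 48 higher in replicate 1 and 56 higher in replicate 2, where the background over all 496 regions was 30%. AT1G14540, a peroxidase gene, ranked 83.9 to 91.1 in replicate 1 and 7.06 to 25.3 in replicate 2. XLG2, an extra-large G protein of immune signalling, had the opposite order, with 9.98 to 30.9 in replicate 1 and 78.1 to 98.2 in replicate 2. MIR168B, the source of a microRNA that targets ARGONAUTE1, ranked 1.21 to 16.8 and 73.9 to 80.4. AT3G27416 and AT3G46930 were also higher in replicate 1 and AT5G38990 in replicate 2.

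The question whether flg22 shifted any of these promoters relative to the rest was put to a limma test on the normal scores of the ranks, fitted to all 496 regions with Benjamini-Hochberg adjustment. Without a term for the replicate no promoter passed an adjusted p of 0.05 for 2 h against 0 h, where 0% of all regions passed. The lowest adjusted p from limma was 0.403. At an unadjusted p under 0.05 there were 30 promoters, 12 higher and 18 lower, where 10.1% of all regions passed that threshold. The largest estimates were at AT3G53810 and CMPG1, higher, and at AT5G39770 and ckl12, a casein kinase-like gene, lower. With the replicate number as a block, 13 promoters passed (4.05%), where 5.04% of all regions did (25 of 496). Of these 8 were higher, where 3.23% of all regions were, and 5 lower, where 1.81% were, with limma adjusted p from 0.0365 to 0.0450. The 13 moved in the same direction in 4 of 4 pairs of libraries. The fit that chose them used these same pairs, so this is a description and not further support. The series' design places all 4 groups in each biological replicate. The number of blocked calls was not stable when 1 library was left out, and the cause was not tested. Leaving out any 1 of 6 libraries left 0 promoters past the threshold, where at most 0.202% of all regions passed. Without WT 0 h replicate 2 there were 24 (7.48%, against 9.07% of all regions). Without mutant 2 h replicate 2 there were 38 (11.8%, against 11.9%). Ranking within each whole list in place of the 496 regions left 0 promoters with the block (lowest limma adjusted p = 0.0501). Ranking by the log q score with the block gave 78 (24.3%, against 26.6% of all regions). Each of these shares of the promoters was at or below that over all 496 regions.

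WRKY41 (AT4G11070, chr4:6758660-6759275) was among the 8 that were higher with the block. Its rank percentiles were 26.6 and 14.2 in untreated WT, 65.2 and 83.1 in treated WT, 9.17 and 8.37 in the untreated mutant, and 79.2 and 39.6 in the treated mutant. The 4 libraries at 2 h were above the 4 at 0 h, with a mean of 66.8 ± 19.7 (SD, n = 4) against 14.6 ± 8.42, a difference of 1.58 ± 0.30 (SE) normal-score units in the blocked fit. AT3G53810 (chr3:19935169-19937074), a lectin receptor-like kinase gene, ranked 19.5 and 10.9 in untreated WT, 98.6 and 73.4 in treated WT, 28.1 and 17.3 in the untreated mutant, and 38.9 and 70.0 in the treated mutant. All values at 2 h were again above those at 0 h. The AT3G53810 maximum lay at -272 to -554 in the replicate 1 libraries and at -1201 to -1268 in the replicate 2 libraries. The 2 replicates thus ranked different positions within this region.

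CMPG1 (AT1G66160, chr1:24636092-24637350), a U-box ubiquitin ligase gene, gave 72.8 and 1.01 in untreated WT, 96.8 and 41.3 in treated WT, 18.6 and 3.53 in the untreated mutant, and 90.1 and 17.1 in the treated mutant. Each pair rose but the times overlapped, and CMPG1 had the largest percentile SD of all members (36.6). Its maximum lay at -210 to -272 in WT. In the mutant the maximum lay at -808 and -868 untreated and at -274 and -889 treated. SNAP33 (AT5G61210, chr5:24622089-24623570), the SNARE partner of SYP121, gave 25.2 and 2.32 in untreated WT, 90.9 and 53.7 in treated WT, 31.4 and 11.9 in the untreated mutant, and 75.4 and 23.1 in the treated mutant. The treated mutant's replicate 2 lay within the range of the untreated libraries. The SNAP33 maximum lay at -840 to -904 in the untreated libraries and the treated mutant's replicate 2. It lay at -368 and -408 in treated WT and at -389 in the treated mutant's replicate 1. These ranks therefore compare different positions within the region. AT5G44575, AT5G22270, CTF2B, annotated as an oxidoreductase, and AT4G39830, annotated as a putative ascorbate oxidase, were the other 4 that were higher.

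Among the 5 that were lower, AT5G39770 (chr5:15927515-15928587), annotated as a restriction endonuclease-like protein, gave 79.4 and 85.7 in untreated WT, 3.43 and 46.9 in treated WT, 74.4 and 85.1 in the untreated mutant, and 29.4 and 41.5 in the treated mutant. PSK3 (AT3G44735, chr3:16292156-16292852), a precursor of the growth peptide phytosulfokine, gave 68.8 and 50.6 in untreated WT, 20.7 and 2.92 in treated WT, 56.2 and 56.2 in the untreated mutant, and 33.5 and 25.8 in the treated mutant. In both genes the 2 times did not overlap. The AT5G39770 maximum lay at -169 in treated WT replicate 1 and at -439 to -474 in the other libraries. GSA2, an aminomutase of chlorophyll synthesis, fell from a mean of 56.7 to 24.0, AT1G69980 from 88.0 to 46.3 and AT5G24040 from 83.5 to 52.7.

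**Figure D4:**
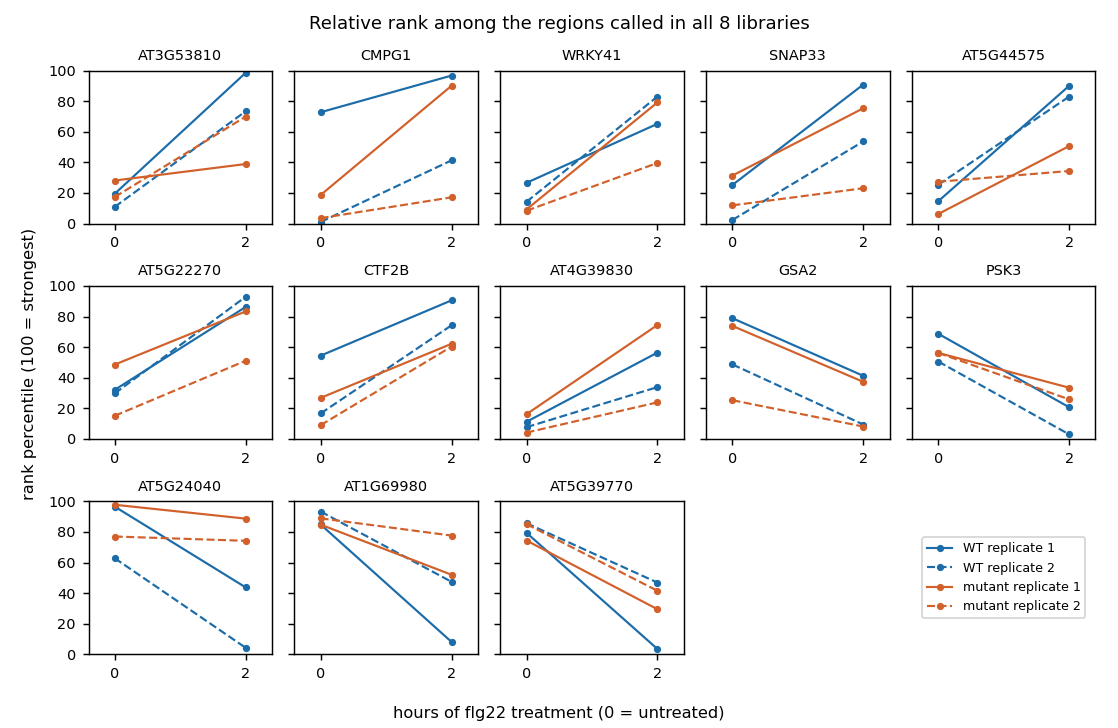
Rank percentile among the 496 regions (vertical axis, 100 is the strongest) at 0 h and 2 h (horizontal axis, hours) for the 13 promoters that passed the blocked limma test, 1 panel per gene. Each line joins the 2 libraries of a genotype (colour) and replicate (solid 1, dashed 2). All 4 lines rise in 8 panels and fall in 5, among genes chosen by a fit to these same libraries.

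Without the block, 29 promoters had 4 libraries at 2 h that did not overlap the 4 at 0 h, 16 higher and 13 lower at 2 h (9.03%), where the background over all 496 regions was 8.47%. The largest differences among them were at WRKY41, AT3G53810 and AT5G22270, higher, and at AT5G39770, AT1G69980 and PSK3, lower. WRKY53 had a mean rank percentile of 83.6 ± 5.69 (SD, n = 4) at 0 h and 94.8 ± 0.787 at 2 h and did not pass (limma adjusted p = 0.463 without and 0.122 with the block).

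The question whether the loss of the 3 WRKY genes shifted promoters relative to the rest was tested the same way. For mutant against WT no promoter passed, where 0% of all regions passed, with a lowest limma adjusted p of 0.989, or 0.530 with the block. At an unadjusted p under 0.05 there were 3 promoters, where 1.01% of all regions passed, and with the block there were 30, where 9.27% passed. In 2 promoters the 4 mutant libraries did not overlap the 4 WT libraries, where the background was 0.806%. AT1G76070 was higher in the mutant, at 66.0 to 83.4 against 31.7 to 57.0, and SZF1, a zinc finger gene of salt and defence responses, was lower, at 20.4 to 70.5 against 73.5 to 89.5. The 2 lower by the largest estimate were AT4G00200 and AT4G33985 and the 2 higher were AT5G24040 and LDOX. LDOX gave 81.0, 28.3, 81.5 and 30.3 in replicate 1 and 24.5, 2.12, 77.5 and 67.9 in replicate 2, in the order WT 0 h, WT 2 h, mutant 0 h and mutant 2 h.

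For the difference between genotypes in the shift from 0 h to 2 h, no promoter passed, where 0% of all regions passed, with a lowest limma adjusted p of 0.993, or 0.843 with the block. At an unadjusted p under 0.05 there were 2 promoters, where 0.806% of all regions passed, and with the block there were 13, where 3.83% passed. AT1G74360, AT1G74790, AT5G42420 and WRKY40 had the largest estimates. WRKY40 gave 44.9 and 90.4 in untreated WT, 21.5 and 85.5 in treated WT, 23.8 and 96.0 in the untreated mutant, and 96.8 and 97.4 in the treated mutant. Replicate 1 was lower at 2 h in WT and higher at 2 h in the mutant, while all replicate 2 values lay above 85. The WRKY40 maximum lay at -1171 to -1186 in the replicate 1 libraries and at -901 to -929 in the replicate 2 libraries. The 2 replicates thus ranked different positions within this region. The interaction in WRKY40 did not pass (limma adjusted p = 0.993 without and 0.843 with the block).

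The promoters just outside the set were the 170 promoter regions called in 7 lists. Their median percentile was 57.6, and it rose with the number of lists from 18.3 in promoter regions called in 1 list to 77.1 in the 321. The promoter share of regions was 56.5% with 1 list, 72.0% with 6, 67.2% with 7 and 64.7% with 8. The list of WT 0 h replicate 1 lacked a peak in 35 of the 170, the most of any list, and its region numbers ran to 1508 with 136 absent, while the other lists had none absent. Of the 10 strongest of the 170 by median percentile, 7 lacked a peak in that list alone. These were led by RLP32, a receptor-like protein gene, with a median of 100.0, AT3G26910 with 98.3, CRK11, a cysteine-rich receptor-like kinase, with 98.3, AT2G36440 with 96.4 and MYB108, a stress-related MYB gene, with 96.2. The weakest members inside were AT3G50695 (5.32 to 53.6), ACA1, a calcium pump (4.04 to 74.4), and AT4G38550 (7.12 to 62.3).

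**Figure D5:**
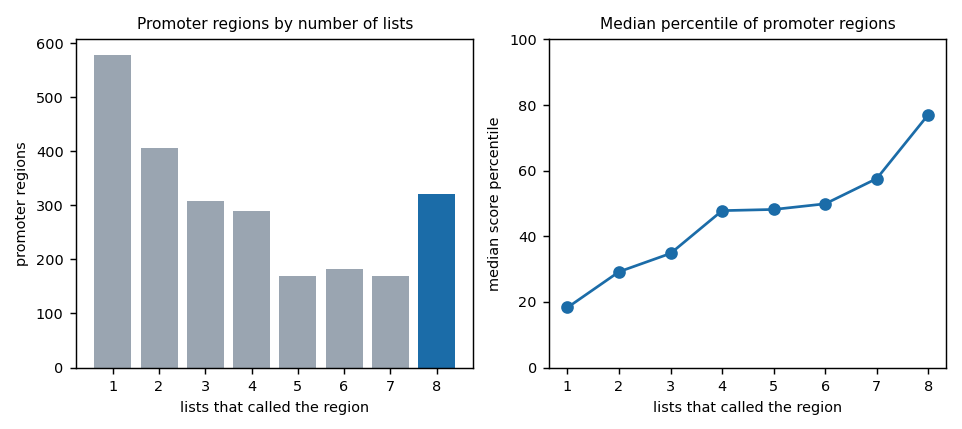
Number of promoter regions (left, bars from 0) and their median score percentile (right) by the number of lists that called the region. Promoter regions called in all 8 lists number 321 and have a median of 77.1, against 57.6 for those called in 7.

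Members were spread over all 5 nuclear chromosomes, with 96 on chromosome 1, 48 on 2, 53 on 3, 56 on 4 and 68 on 5, close to the shares of all regions (29.9% against 27.4% on chromosome 1). Less than 5 kb separated 10 neighbouring pairs. They included AT1G30720 and AT1G30730, both annotated as FAD-binding berberine bridge enzyme-like proteins, 1711 bp apart, with AT1G30700 of the same annotation 4548 bp beyond, as well as CMPG1 and MMD1 at 3837 bp, AT4G23215 and CRK14 at 2926 bp and the chitinase genes CHI and AT2G43590 at 4454 bp.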

How the data were processed

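The series held 8 input and 8 immunoprecipitated Arabidopsis libraries, and the 8 deposited peak lists, 1 per immunoprecipitated library, were analysed. Each library was sequenced, per the labels, to 10-20 M reads. Per the submitters' processing notes, the TAIR10 build was used with Bowtie2 2.0.5, SAMtools 0.1.18, HOMER, cutadapt 1.2.1 and FastQC 0.11.2. Which program called the peaks is not given in the sources at hand. Each deposited list holds a ChIP score per peak, computed by the authors, whose scale the file headers do not state. It therefore only ranks peaks within a list.

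From these lists, regions were merged and score percentiles computed in Python 3.11.15 with pandas 2.3.3. The deposited distance to the TSS is measured from the peak midpoint, in 1692 of 1692 promoters checked for an exact match, so distances of the maximum were derived from the TSS and strand that the lists imply. Gene names came from the RefSeq gene table (TAIR10.1, names only), where 315 of 321 member genes matched. Relative ranks were tested with limma 3.58.1 in R 4.3.3 on all 8 libraries with 4 group means, after tests on simulated data, with a threshold of 0.05 on adjusted p. The replicate numbers pair the libraries: the design describes all 4 conditions for each biological replicate, and deviations from group means of same-numbered libraries correlated at 0.51 to 0.69 over 496 regions.

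The members, gene lists and tests were chosen with earlier results of these data known. The text names the 12 members of highest and 3 of lowest median percentile, those of most and least spread, the largest or called members per contrast, every listed gene found among the members, and promoters next to the rule's border or not overlapping between libraries, the last chosen after their values were seen. Alternatives were other merging, annotation, score and rank choices, the replicate block and leaving out each library. Sequences and W-box counts are not analysed here.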

Additional observations from a re-analysis of the deposited data

How the results depend on the processing

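Of the 321 regions, 283 remained when peaks were cut to 150 bp, 302 with promoter class in every list and 226 with equal numbers of peaks per list. Annotation by the region log q score gave a set of 322, of which 320 were among the 321, and leaving out 1 library gave sets of 327 to 355, which shared 319 to 321. The set held 124 regions with only peaks at or above the median score of their list, a cut that removes peaks from every list. In 123 of the 321 all 8 percentiles were above 50. The median position of the maximum was -204 in WT 0 h replicate 2, -265.5 in WT 2 h replicate 1 and -277 in mutant 2 h replicate 1, against -234 in the strongest peak over all libraries.

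With the replicate block 13 promoters passed for 2 h against 0 h, against 0 without it, and 78 passed with the block and ranking by the log q score (24.3%, against 26.6% of all regions), all 13 among them. Leaving out 1 library gave 0 promoters without the block and, with it, 0 to 38: 24 without WT 0 h replicate 2 (9.07% of all regions passed), of which 11 were among the 13, 38 without mutant 2 h replicate 2 (11.9% of all regions passed), of which 12 were, and 0 in the other 6. The cause of these differences was not tested. The block changed no other call: mutant against WT and the interaction gave 0 promoters under every alternative run, which included plain ranks and percentiles of whole lists. The blocked alternatives other than the plain block were chosen after seeing the data. The W-box share and its shorter core were not run. With 2 libraries per group and no read counts, the depth behind a call could not be weighed.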
